A study of Mus musculus with 32 samples.

Results

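The collagen chain genes encode the alpha chains from which collagen molecules are assembled. They were taken as every gene with a platform symbol of the form Col, digits, a, digits, and each was represented by its probe set of highest mean over all arrays. This gave 42 genes of the 18193 with a probe set of 1 symbol, and 37 of them passed the filter on low values, out of 13705 genes that did. The 42 were matched to RefSeq genes by Entrez identifier, with 0 changes of symbol. Their expression was read from 32 arrays hybridised with RNA of jaws of mouse embryos (embryonic day 13.5). Mutant embryos came from matings of Wnt1cre;Alk5fl/+ with Alk5fl/fl mice, on a background labelled C57B6. Alk5, gene symbol Tgfbr1, is the type I receptor through which TGF-beta ligands signal, and Wnt1cre removes it in the neural crest and its descendants. Epithelium, endothelium, blood cells and muscle fibres do not arise from the neural crest and keep the receptor. Mutants had been recognised by a cleft palate and a calvarial defect, and controls were littermates whose own alleles are not given further. Mandible and maxilla were each cut into a distal and a proximal end, which with 2 genotypes made 8 groups, each holding arrays 1 to 4. Whether the 4 arrays of a group came from separate embryos or pools is not stated, so p-values measure the spread between arrays, part of which may be technical.

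Collagen chains wind around each other into helical trimers, and the classes of collagen differ in what the trimers build. Fibril-forming chains give the tensile fibrils of bone, dermis and cartilage, fibril-associated chains sit on their surface, and others form beaded filaments, sheets of basement membrane or short-chain networks. Most of the matrix of the embryonic jaw is laid down by mesenchyme that descends from the neural crest, in which chondrocytes make collagens II, IX and XI and osteoblasts and fibroblasts make collagen I. TGF-beta signalling is a known inducer of fibrillar collagen genes, acting through SMAD proteins that bind DNA at a short element with the core CAGAC.

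The 42 genes spread over all classes. The tested members comprised 10 of 11 fibril-forming, 9 of 9 fibril-associated and related, 4 of 6 basement membrane, 4 of 5 beaded-filament, 4 of 4 membrane-spanning, 2 of 3 short-chain and 2 of 2 multiplexin genes, along with the anchoring-fibril gene Col7a1 and Col26a1. The 5 members that did not pass the filter were Col4a3 (5.41 to 6.19 on the log2 scale over the 32 arrays), Col4a4 (5.01 to 5.70), Col5a3 (5.88 to 7.08), Col6a5 (4.15 to 5.03) and Col10a1 (5.23 to 5.79). Col10a1 is the marker of hypertrophic cartilage. The filter level of an array, its percentile 40, lay between 6.66 and 6.86, so Col10a1 was below it on every array of every group. Some members that passed were still near that level. Col6a4 lay above it on 5 of 32 arrays, Col22a1 on 13, Col24a1 on 19 and Col19a1 on 26. Levels are not compared between genes, because probe sets differ in how brightly they hybridise.

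Promoters were examined because the neighbouring members Col6a1 and Col6a2 had like differences in the data below, which not all neighbouring members had. RefSeq promoter windows (build GRCm38.p6) were matched by symbol for 33 of the 42 members, with 36 windows in all, and the 250 bases before each start were searched. Col6a1 and Col6a2 are neighbours on chromosome 10 with 0 protein-coding genes between them, and Col18a1 lies beyond Col6a1 with 2 between. Both strands were searched for each motif. CAGAC, the SMAD core, occurred in 15 of the 36 member windows (41.7%) and in 42.2% of all 32841 promoter windows. The GC box GGGCGG occurred in 21 of 36 (58.3%), against 32.7% of all windows. Most member windows lay above the median GC content of all windows, 52.4%, with a range of 35.2% to 76.4%. The part of GC content in the GC box share was not tested. CCAAT occurred in 13 (all windows 33.9%), TATAAA in 5 (12.4%), the RUNX element TGTGGT in 3 (14%), and the AP-1 element TGANTCA and the SOX element AACAAT in 1 each (6.75% and 9.43%). The 250 bases before the start are shown for Col8a1, Col6a1, Col6a2 and Col6a3, on which the results below turn. Each reads 5′ to 3′ on the minus strand in the gene's direction, and capitals mark CAGAC or its complement GTCTG. Col8a1 lies at chr16:57754738-57754987, Col6a1 at chr10:76726045-76726294, Col6a2 at chr10:76623631-76623880 and Col6a3 at chr1:90843972-90844221.
Col8a1: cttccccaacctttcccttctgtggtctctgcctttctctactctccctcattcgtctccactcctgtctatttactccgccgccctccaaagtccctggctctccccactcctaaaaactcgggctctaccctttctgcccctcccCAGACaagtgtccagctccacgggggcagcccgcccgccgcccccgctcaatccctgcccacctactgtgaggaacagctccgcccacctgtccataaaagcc
Col6a1: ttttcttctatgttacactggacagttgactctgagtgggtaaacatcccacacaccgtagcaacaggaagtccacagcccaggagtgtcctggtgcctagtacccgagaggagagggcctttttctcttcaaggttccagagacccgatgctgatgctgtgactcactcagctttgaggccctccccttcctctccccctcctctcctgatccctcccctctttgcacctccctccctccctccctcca
Col6a2: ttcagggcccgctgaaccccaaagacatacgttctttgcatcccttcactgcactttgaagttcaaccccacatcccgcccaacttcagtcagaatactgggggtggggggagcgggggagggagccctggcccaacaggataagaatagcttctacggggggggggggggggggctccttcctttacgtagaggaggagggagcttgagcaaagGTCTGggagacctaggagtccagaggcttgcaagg
Col6a3: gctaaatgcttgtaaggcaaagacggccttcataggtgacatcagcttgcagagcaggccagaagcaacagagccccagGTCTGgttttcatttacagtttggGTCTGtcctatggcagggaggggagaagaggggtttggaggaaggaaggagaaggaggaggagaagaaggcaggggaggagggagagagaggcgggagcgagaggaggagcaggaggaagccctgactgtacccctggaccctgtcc
The core occurred 1 time before the Col8a1 start, 2 times before that of Col6a3, 1 time in this stretch of Col6a2 and 0 times before Col6a1. A second Col6a2 window, at chr10:76623405-76623654 and overlapping the one shown, held it 0 times. The windows of Col8a2, Col6a4 and Col6a5, which are not shown, also held it 0 times each. The Col18a1 windows, not shown either, held it 1 time at chr10:77113706-77113955 and 0 times at chr10:77166531-77166780. The only window of the 33 genes with the AP-1 element was that of Col6a1.

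Several arrays stood apart before any comparison. The 8 arrays numbered 1 read 13.53 to 13.85 for the Cre spike-in, a hybridisation control, where the other 24 read 12.17 to 13.07. On the 4 control arrays numbered 1 the markers of cartilage had a mean log2 level of 9.47 to 10.38, against 7.21 to 9.23 on the other 28, those of bone 8.54 to 11.04 against 6.85 to 8.30, and erythroid markers 12.70 to 13.14 against 11.72 to 12.63. The control array numbered 3 of the distal mandible read 2.23 higher at the 3′ than at the 5′ Gapdh probes, a gap that was -0.18 to 0.12 elsewhere. Xist was high on control arrays numbered 2 and mutant arrays numbered 1, 8 in all (13.34 to 14.06), at 9.69 and 10.72 on the control maxilla arrays numbered 3, and 6.38 to 6.96 on the rest. Arrays of 1 group correlated at 0.926 to 0.997. Hand2, a gene of the lower jaw, read 10.71 to 13.66 on mandible arrays and 5.76 to 10.17 on maxilla arrays. The highest of these maxilla values was on control array 3 of the proximal end, where Xist read 10.72. Of the other lower jaw genes, Dlx6 was also apart, at 9.96 to 11.80 and 6.94 to 9.67. Dlx5 overlapped between the jaws, at 10.92 to 12.62 and 9.51 to 11.48, as did Hand1, at 6.98 to 8.41 and 6.92 to 8.03. Tgfbr1 did not fall: its differences of mutant minus control were 0.28 ± 0.07 (SE) in the distal mandible (limma adjusted p = 0.0411), 0.18 in the proximal mandible (0.285), 0.41 ± 0.07 in the distal maxilla (0.00477) and 0.16 in the proximal maxilla (0.978). Its control arrays read 12.55 to 12.82 and its mutant arrays 12.80 to 13.32. Where the probes lie relative to the deleted part is not known, so Tgfbr1 does not check the labels.

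In the mutant the collagen chain genes lay lower as a body, by a modest amount, with few members past the test. In the distal mandible 35 of 37 members were below control, with a median difference of -0.32 on the log2 scale (1 unit is a factor of 2). Over all genes the median was -0.03 and 57.3% were below 0. In the proximal mandible 27 members were below 0 (median -0.35, all genes 0.01 and 46.3%), in the distal maxilla 33 (-0.35, all genes -0.03 and 56.7%) and in the proximal maxilla 26 (-0.17, all genes 0.02 and 42.5%). On the mean of the 4 regions 32 of 37 were below 0, with a median of -0.28, where 50% of all genes were. Tissue RNA was measured in bulk, so fewer cells of a type and less RNA per cell cannot be told apart.

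By class, the short-chain genes (median average difference -0.75 over 2 genes), the beaded-filament genes (-0.61 over 4) and the fibril-associated genes (-0.57 over 9) lay lowest. The fibril-forming genes were at -0.34 over 10, with 10 of 10 below 0 on average and in both ends of the maxilla. The basement membrane genes were close to control in each region, with medians of -0.07, 0.03, -0.11 and 0.01 in the distal mandible, proximal mandible, distal maxilla and proximal maxilla. These 4 genes, Col4a1, Col4a2, Col4a5 and Col4a6, encode the sheet-forming collagen IV, and 0 of them passed the test (limma, 0 also at an unadjusted p under 0.05 except Col4a5 in the distal mandible, -0.50 ± 0.16, adjusted p = 0.102). Col4a1 read 13.07, 12.67, 12.71 and 12.50 in control distal mandible and 12.92, 12.61, 12.41 and 12.57 in mutant, a difference of -0.11 with overlap. It read 12.86, 12.42, 12.54 and 12.50 against 12.89, 12.60, 12.55 and 12.29 in the proximal mandible (0.0026). In the maxilla it read 13.08, 13.09, 12.54 and 12.50 against 12.80, 12.55, 12.43 and 12.87 distally (-0.14) and 12.96, 12.51, 12.73 and 12.68 against 12.996, 12.73, 12.68 and 12.61 proximally (0.03). The membrane-spanning genes had a median of -0.02 over 4. No list was tested as a set, and the classes are described by their counts and medians only.

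**Figure D1:**
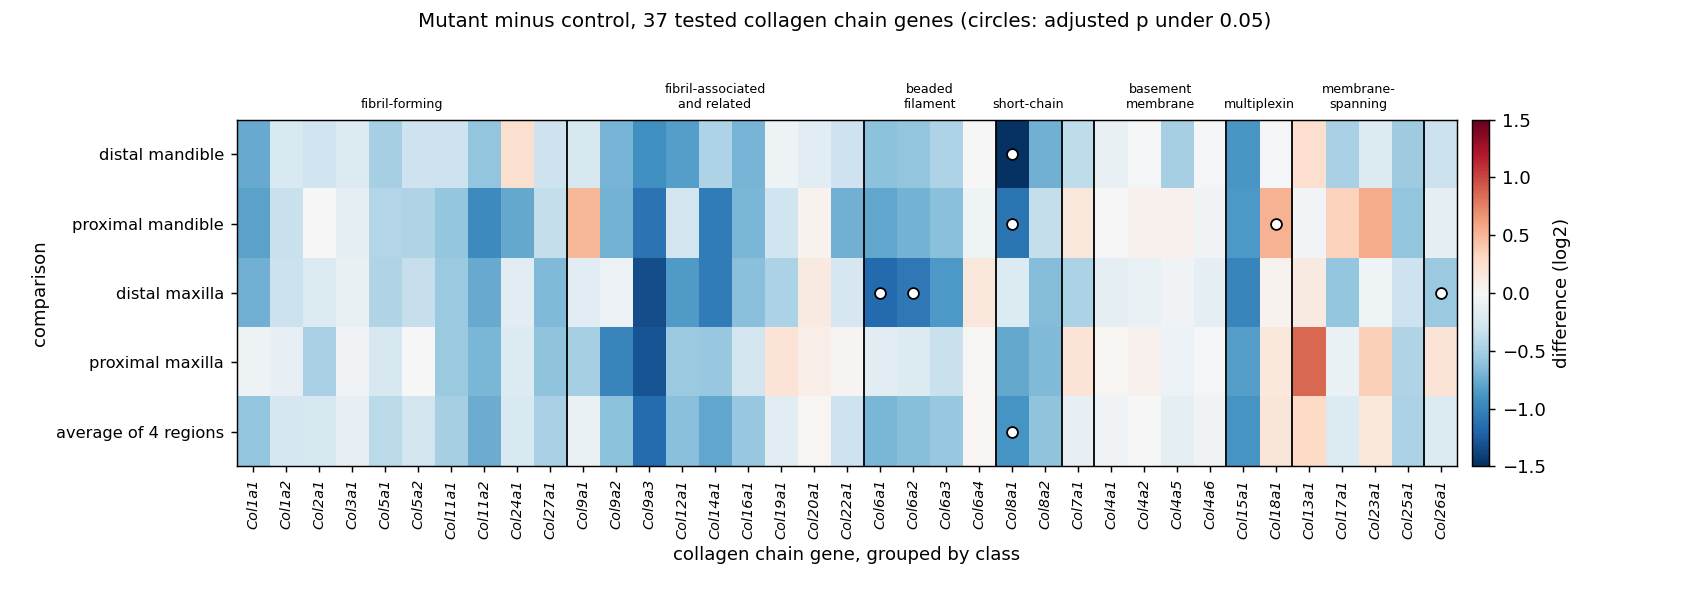
Mutant minus control difference (log2, colour scale from -1.5 to 1.5) of the 37 tested collagen chain genes, grouped by class, in the 4 regions and on their mean. Circles mark an adjusted p under 0.05, and most cells are on the blue side, with 35 of 37 genes below 0 in the distal mandible, 27 in the proximal mandible, 33 in the distal maxilla, 26 in the proximal maxilla and 32 on the mean.

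Part of this shift came with the arrays numbered 1. Within number 1 the median member differed by -0.75 in the distal mandible, -0.74 in the proximal mandible, -0.89 in the distal maxilla and -0.37 in the proximal maxilla. Within numbers 2, 3 and 4 the medians were -0.20, -0.31 and -0.17 in the distal mandible and -0.03, -0.15 and -0.26 in the proximal mandible. They were -0.61, -0.14 and 0.13 in the distal maxilla and 0.20, -0.01 and -0.15 in the proximal maxilla. For the mean of the regions the medians were -0.73, -0.19, -0.17 and -0.25, with 34, 28, 27 and 26 of 37 members below 0. In the control distal mandible 34 of the 37 members read highest on array 1, as 33.7% of all genes did. The number was 28 in the control proximal mandible (33% of all genes), 20 in the distal maxilla (28.5%) and 29 in the proximal maxilla (34.8%). Without the 4 control arrays numbered 1 the median differences were -0.18, -0.11, -0.25 and -0.01 in the distal mandible, proximal mandible, distal maxilla and proximal maxilla, and -0.19 on average. The part of the higher cartilage, bone and erythroid markers on those arrays in the shift was not tested.

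**Figure D2:**
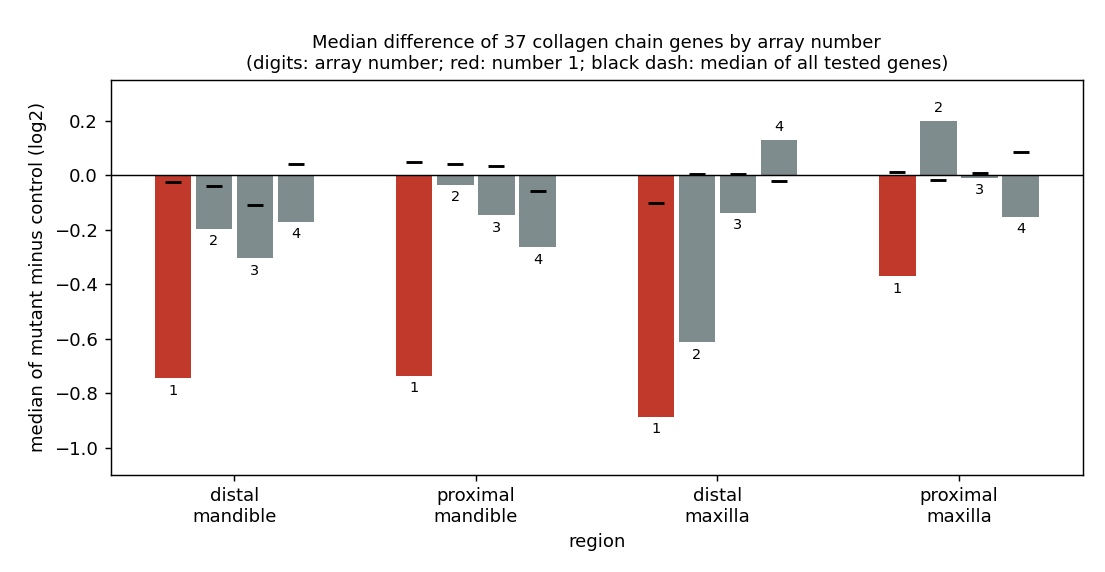
Median mutant minus control difference (log2) of the 37 collagen chain genes within each array number, by region; bars of number 1 are red, the others grey, and black dashes give the median of all 13705 genes. Number 1 had the most negative bar in each region, from -0.89 to -0.37, while the bars of numbers 2 to 4 lay between -0.61 and 0.20.

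Col8a1 showed the clearest change. It encodes a chain of collagen VIII, a short-chain collagen of sheet-like networks around vessels and in mesenchyme. In the distal mandible it read 10.58, 10.44, 10.26 and 9.98 on control arrays 1 to 4 and 9.09, 8.93, 8.51 and 8.80 on mutant arrays. The groups did not overlap. Col8a1 fell by 1.48 ± 0.26 (SE, n = 4 against 4, limma with Benjamini-Hochberg adjustment, adjusted p = 0.00232). It was the only member called there, 1 of 37, where 1.91% of all genes were called. By number the differences were -1.49, -1.51, -1.75 and -1.18, so the size was alike within number 1 and outside it. The fall kept its call in every alternative run except without replicate 3 (-1.39, adjusted p = 0.0685).

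Proximally in the mandible, Col8a1 read 10.57, 10.33, 10.04 and 10.55 in control and 9.36, 9.30, 9.54 and 8.91 in mutant. Again no mutant array reached a control array. The fall was 1.10 ± 0.26 (limma adjusted p = 0.0295), among 2 of 37 members called where 1.26% of all genes were. The call was lost when any 1 of the numbers was left out (limma adjusted p of 0.0794 to 0.272). It was also lost with the mean of the Col8a1 probe sets (-0.91, adjusted p = 0.0801). A second Col8a1 probe set differed by -1.45 in the distal mandible (adjusted p = 0.0212 over all probe sets) and -0.96 in the proximal mandible (0.219), and the remaining one by -0.43 and -0.68, neither called.

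In the maxilla the Col8a1 groups overlapped. Distal control arrays read 11.81, 12.13, 10.95 and 10.999 and mutant arrays 11.52, 11.19, 10.82 and 11.51, a difference of -0.21. Proximal control arrays read 12.15, 11.55, 11.54 and 11.65 and mutant arrays 10.32, 11.77, 11.03 and 10.69. Mutant array 2 was above 3 of the 4 controls there, and the difference of -0.77 ± 0.26 did not pass (adjusted p = 0.487). On the mean of the regions Col8a1 fell by 0.89 ± 0.14 (4 against 4, limma adjusted p = 0.0265), the 1 member called of 37 where 1.37% of all genes were. That call ended without number 2 (0.122), 3 (0.158) or 4 (0.208), and with the mean of its probe sets (-0.75, 0.0666). The difference between the jaws in the size of the distal effect was -1.27 ± 0.37 and was not called (adjusted p = 0.292), so an effect particular to the mandible was not shown. Col8a2, whose product joins the Col8a1 chain in collagen VIII, differed by -0.72, -0.35, -0.66 and -0.67 in the 4 regions and passed in none. Its distal mandible groups did not overlap, at 10.37 to 11.59 in control and 10.22 to 10.27 in mutant.

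**Figure D3:**
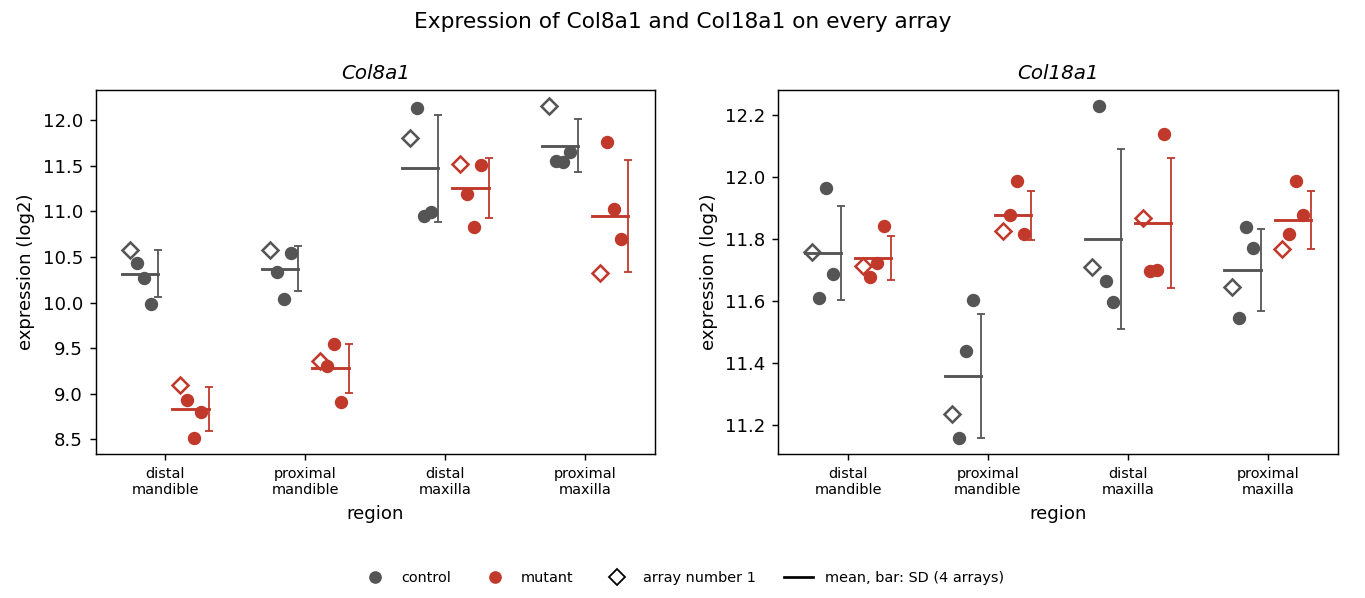
Log2 expression of Col8a1 (left) and Col18a1 (right) on every array by region, control in grey and mutant in red, with open diamonds for array number 1, lines for means and bars for SD (n = 4). All mutant arrays of Col8a1 in the mandible lie below all controls (at the distal end at most 9.09 against at least 9.98), and all mutant arrays of Col18a1 in the proximal mandible (11.82 to 11.99) lie above the controls (11.16 to 11.60).

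The chains of collagen VI, the beaded-filament collagen of loose connective tissue, had like differences. Col6a1, Col6a2 and Col6a3 are assembled together into 1 molecule. In the distal maxilla Col6a1 read 12.18, 10.93, 11.35 and 11.65 in control and 10.79, 10.12, 10.17 and 10.36 in mutant. No mutant array reached a control. The fall was 1.17 ± 0.26 (limma adjusted p = 0.0279). Col6a2 read 13.26, 12.05, 12.46 and 12.63 in control and 12.03, 11.30, 11.42 and 11.36 in mutant, the highest mutant array just under the lowest control. It fell by 1.07 ± 0.23 (adjusted p = 0.0258), and its second probe set differed by -1.12 (adjusted p = 0.141 over all probe sets). Col6a3 read 13.24, 12.25, 12.40 and 11.91 in control and 12.14, 11.38, 11.36 and 11.50 in mutant, with mutant array 1 above control array 4. Its difference of -0.86 ± 0.24 did not pass (adjusted p = 0.0913). Members called in the distal maxilla were 3 of 37, Col6a1, Col6a2 and Col26a1, where 0.788% of all genes were called.

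In the distal mandible Col6a1 read 12.55, 11.82, 12.25 and 11.79 in control and 11.80, 11.41, 11.28 and 11.47 in mutant (-0.61 ± 0.26, adjusted p = 0.23). Mutant array 1 lay just above control array 4. Col6a2 read 13.39, 12.82, 13.09 and 12.70 against 12.70, 12.35, 12.31 and 12.29 (-0.59 ± 0.23, adjusted p = 0.2), without overlap. Col6a3 read 13.33, 12.91, 12.55 and 12.69 against 12.49, 12.55, 12.23 and 12.37 (-0.46 ± 0.24). The proximal mandible showed a like pattern without overlap for any of the trio. Col6a1 was 12.37, 11.48, 11.61 and 11.78 in control and 11.33, 11.23, 10.96 and 10.60 in mutant (-0.78 ± 0.26, adjusted p = 0.16). Col6a2 was 13.26, 12.56, 12.48 and 12.62 against 12.27, 12.08, 11.98 and 11.74 (-0.71 ± 0.23, adjusted p = 0.158). Col6a3 was 13.43, 12.38, 12.59 and 12.49 against 12.32, 12.18, 11.87 and 11.996 (-0.63 ± 0.24, adjusted p = 0.25). None of these 6 differences passed the test.

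In the proximal maxilla the collagen VI genes overlapped widely. Col6a1 read 11.82, 10.99, 10.64 and 11.36 in control and 11.35, 10.69, 10.95 and 11.16 in mutant (-0.17). Col6a2 read 12.88, 12.14, 11.86 and 12.33 against 12.41, 11.72, 12.08 and 12.19 (-0.20), and Col6a3 read 12.76, 12.15, 12.09 and 12.44 against 12.23, 11.64, 12.04 and 12.22 (-0.33). The change of the genotype effect between the ends of the maxilla was -1.004 ± 0.36 for Col6a1 and -0.87 ± 0.33 for Col6a2, neither called (adjusted p = 0.714 and 0.803). In the other 3 regions the mutant array was below the control array of its number for each of the trio in 4 of 4 numbers. Without number 1 the distal maxilla falls were 1.10 for Col6a1 (adjusted p = 0.0134) and 1.02 for Col6a2 (0.00239), and Col6a3 then fell by 0.78 (0.0161).

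**Figure D4:**
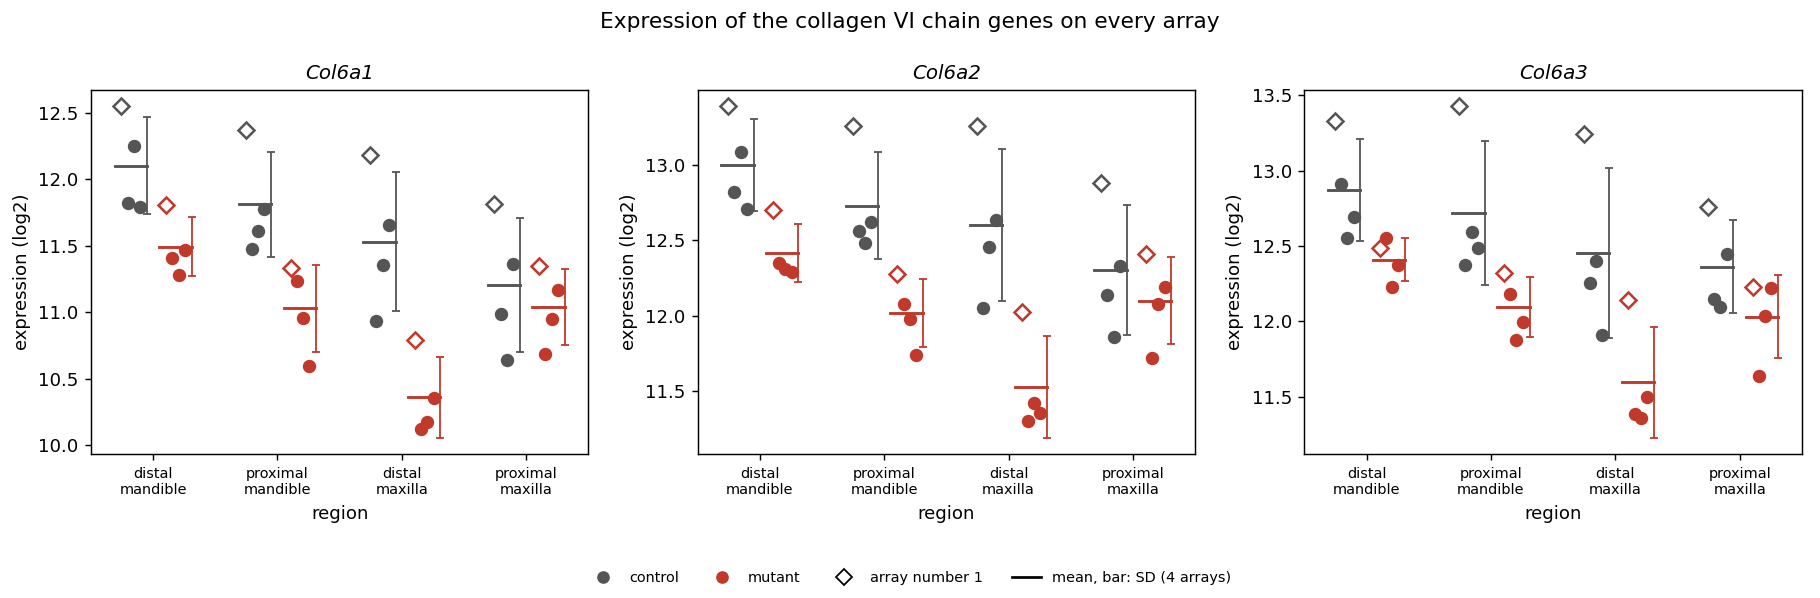
Log2 expression of Col6a1, Col6a2 and Col6a3 on every array by region, control in grey and mutant in red, with open diamonds for array number 1, lines for means and bars for SD (n = 4). In the distal maxilla the mutant means of 10.36, 11.53 and 11.60 lie below the control means of 11.53, 12.60 and 12.45, and the control diamonds are the highest arrays of their groups.

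Several alternatives ended the calls in the distal maxilla. Fitted on the distal maxilla arrays alone, Col6a1 had an adjusted p of 0.249, Col6a2 0.301 and Col26a1 0.431. Leaving out number 3 or 4 ended the calls of Col6a1 (0.304 and 0.14), Col6a2 (0.304 and 0.16) and Col26a1 (0.241 and 0.117), with differences of -1.17 and -1.13, -1.09 and -1.005, and -0.58 and -0.50. Leaving out only the control or only the mutant arrays of a number also ended calls, those of mutant number 2 for all these genes (0.121, 0.119 and 0.0708). Control array 2 and mutant array 4 of the distal maxilla stood apart in marker levels and in some members. Jaw mesenchyme markers had a mean log2 level of 12.25 on that control array, against 12.91 to 12.98 on the other controls. On that mutant array they were at 12.10, against 12.67 to 12.80. Epithelial markers were at 10.07 against 11.36 to 11.51, and at 10.85 against 11.45 to 11.77. On the proximal arrays of the same genotype and number, mesenchyme markers were at 12.85 and 13.01, the highest of their groups. Col17a1, the epithelial hemidesmosome collagen, read 6.98 on that control array, against 9.51 to 10.46 on the other controls, and 7.45 on that mutant array, against 8.54 to 9.46. Without control number 2 the falls were 1.37 for Col6a1 (adjusted p = 0.00786) and 1.26 for Col6a2 (0.00859). Without mutant number 4 they were 1.17 (0.0596) and 1.02 (0.0745). Macrophage markers differed by a median of 0.88 in the distal maxilla (6 genes, 0 called), cartilage markers by -1.27 (9 genes, 0 called) and tendon markers by -0.77 (5 genes, 0 called). Control array 1 had a mean cartilage marker level of 10.06 there, against 8.16 to 8.89 on the other controls. The summed log2 level of the tendon markers was 10.84 to 11.64 in control and 9.88 to 10.60 in mutant, without overlap. The part of these cell types in the results was not tested.

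Col26a1, which encodes an alpha chain of a small secreted collagen, read 12.34, 11.73, 12.30 and 12.37 in control distal maxilla and 11.36, 11.67, 11.84 and 11.66 in mutant. Control array 2 lay within the mutant range. The fall was 0.55 ± 0.12 (limma adjusted p = 0.0193), and was 0.41 without number 1 (adjusted p = 0.181). Its other probe set, of low signal, differed by -0.11. In the proximal maxilla Col26a1 read 11.88, 11.73, 11.78 and 11.79 in control and 12.05, 11.79, 11.93 and 12.24 in mutant, a difference of 0.21 that did not pass. The change of effect between the ends was -0.76 ± 0.16 and missed the threshold (adjusted p = 0.0805). In the mandible it read 12.41, 12.20, 12.20 and 12.33 against 12.03, 11.98, 11.93 and 11.91 at the distal end, without overlap (-0.32, adjusted p = 0.149).

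Col18a1 was the only member called higher in the mutant in any of the 5 genotype comparisons. It encodes the core protein of a basement membrane proteoglycan of the multiplexin class, the source of endostatin. In the proximal mandible it read 11.24, 11.16, 11.44 and 11.60 in control and 11.82, 11.88, 11.99 and 11.82 in mutant. Each mutant array was above each control. The rise was 0.52 ± 0.12 (limma adjusted p = 0.0224), and a second probe set rose by 0.49 (adjusted p = 0.0383 over all probe sets). The call ended without number 1 (0.49, adjusted p = 0.131), without number 2 (0.45, 0.0975) and without number 3 (0.51, 0.227). The distal mandible gave -0.02, the distal maxilla 0.05 and the proximal maxilla 0.16, and the change of effect between the ends of the mandible was -0.53 ± 0.17 (adjusted p = 0.602). Endothelial markers had a median difference of -0.13 in the proximal mandible (7 genes, 0 called) and epithelial markers 0.31 (7 genes, 0 called). Their summed log2 levels were 12.52 to 12.91 in control and 12.41 to 12.77 in mutant for endothelium, and 12.93 to 13.54 and 13.33 to 13.75 for epithelium. Macrophage markers had a median difference of 1.06 (6 genes, 2 called higher), and their summed log2 level was 11.17 to 11.68 in control and 12.38 to 12.54 in mutant. The part of these cell types in the rise was not tested. Col23a1, a membrane-spanning chain, also had every mutant array of the proximal mandible above every control, at 10.84 to 11.37 against 10.46 to 10.498, and was not called (0.55 ± 0.27, adjusted p = 0.427). The other multiplexin, Col15a1, differed by -0.87, -0.86, -0.99 and -0.82 in the 4 regions, with adjusted p from 0.226 to 0.956. It was lower in the mutant array of each number in all 4 regions, but its groups overlapped in each region. Numbers were not shown to pair the arrays of single regions.

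The chains of collagen I, the main fibril of bone and dermis, lay lower without a call in the regions. On average Col1a1 differed by -0.59 (adjusted p = 0.223), and was called lower with number as a block (0.0269). Col1a1 read 12.86, 12.04, 12.22 and 11.85 in control distal mandible and 11.81, 11.51, 11.24 and 11.36 in mutant (-0.76 ± 0.25, adjusted p = 0.122). In the proximal mandible it read 13.04, 11.90, 11.98 and 11.80 against 11.73, 11.51, 11.29 and 11.01 (-0.80, adjusted p = 0.138). Neither pair of groups overlapped, and control array 1 was the highest in both. Distal maxilla arrays read 12.60, 11.75, 11.71 and 11.63 against 11.71, 11.14, 11.003 and 10.95 (-0.72, adjusted p = 0.192), and proximal maxilla arrays 11.88, 11.57, 11.31 and 11.62 against 11.74, 11.20, 11.55 and 11.57 (-0.08). Col1a2, the partner chain of Col1a1, read 14.41, 14.22, 14.12 and 14.07 against 14.01, 14.03, 13.95 and 13.93 in the distal mandible (-0.23), and 14.51, 14.21, 14.29 and 14.30 against 14.09, 14.08, 14.06 and 13.77 in the proximal mandible (-0.33 ± 0.09, adjusted p = 0.0546). In the maxilla it read 14.45, 14.21, 14.14 and 14.19 against 13.83, 14.04, 13.999 and 13.84 at the distal end (-0.32, adjusted p = 0.0718), and 14.29, 14.19, 14.06 and 14.19 against 14.15, 14.005, 13.98 and 14.10 at the proximal end (-0.12). All mandible and distal maxilla groups of Col1a2 were apart.

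Col3a1, the fibril of elastic connective tissue, read 14.25, 14.09, 13.99 and 14.02 in control and 13.96, 13.95, 13.78 and 13.84 in mutant distal mandible (-0.20, adjusted p = 0.223). Its groups were just apart. Proximal mandible arrays read 14.22, 13.96, 14.01 and 14.03 against 14.05, 13.97, 13.85 and 13.75 (-0.15). Distal maxilla arrays read 14.18, 14.01, 13.88 and 13.89 against 14.08, 13.86, 13.85 and 13.76 (-0.11), and proximal maxilla arrays 14.10, 13.91, 13.87 and 13.89 against 13.96, 13.84, 13.86 and 13.91 (-0.05). These 3 pairs of groups overlapped. Col5a1, a chain that sets fibril diameter, differed by -0.50, -0.44, -0.45 and -0.24 in the 4 regions, none called. Col27a1 differed by -0.66 ± 0.18 in the distal maxilla (limma adjusted p = 0.0767) and by -0.60 in the proximal maxilla (0.323). It was lower in the mutant array of every number in every region. Its groups were apart at both ends of the maxilla and overlapped at both ends of the mandible.

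No cartilage collagen gene was called between genotypes, and the differences of Col2a1 and Col9a1 did not keep 1 sign over the regions. Col2a1, the main cartilage fibril, read 12.29, 11.85, 11.28 and 11.32 in control distal mandible and 11.46, 11.74, 11.42 and 10.90 in mutant (-0.30). In the proximal mandible it read 12.93, 12.45, 12.10 and 12.10 against 12.32, 12.52, 12.49 and 12.29 (0.01). Distal maxilla arrays read 12.64, 13.46, 11.83 and 11.72 in control and 11.53, 12.24, 11.90 and 13.15 in mutant (-0.21). Proximal maxilla arrays read 13.29, 12.51, 12.75 and 12.84 against 11.84, 13.32, 12.51 and 11.78 (-0.48). Control and mutant overlapped in each region. Col9a1, a fibril-associated chain of cartilage, read 12.85, 12.95, 12.25 and 12.52 in control proximal mandible and 13.06, 13.22, 13.20 and 13.09 in mutant. All its mutant arrays there were higher, by 0.50, which did not pass. In the distal mandible it read 12.53, 12.34, 12.34 and 12.18 against 11.93, 12.19, 12.20 and 12.13 (-0.24). In the distal maxilla it read 12.86, 13.26, 12.17 and 12.05 against 11.99, 12.57, 12.14 and 13.02 (-0.15), and in the proximal maxilla 13.34, 12.61, 12.76 and 12.85 against 11.90, 13.37, 12.54 and 11.76 (-0.50). These groups overlapped. Col9a3, its partner chain, had the most negative average of any member, -1.16 ± 0.32, with an adjusted p of 0.138. On its control arrays numbered 1 Col9a3 read 10.99 to 12.37, against 10.03 to 11.63 on the other controls and 8.97 to 11.32 on the mutants. Cartilage markers outside the collagens had a median average difference of -0.92 (9 genes, 9 below 0, 0 called). The summed log2 level of the cartilage markers was 11.93 to 14.27 on control arrays and 10.90 to 13.11 on mutant arrays, and bone markers were at 9.44 to 13.24 and 9.12 to 11.02. Their part in the collagen values was not tested.

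Col12a1 and Col14a1 are fibril-associated genes of soft tissue, and neither was called. Col12a1, which binds collagen I in dense connective tissue, read 12.09, 11.26, 11.22 and 11.25 in control distal mandible and 10.35, 10.71, 10.69 and 10.74 in mutant (-0.83 ± 0.34, adjusted p = 0.209). The groups were apart, and array 1 was highest in control and lowest in mutant. Proximally Col12a1 read 12.52, 11.30, 11.42 and 11.33 against 11.31, 11.35, 11.43 and 11.39, so that arrays 2 to 4 were close to level. In the maxilla its groups overlapped, at 12.31, 12.26, 11.32 and 10.92 against 11.19, 10.46, 10.21 and 11.57 distally (-0.85) and 12.36, 11.54, 11.33 and 11.99 against 10.91, 12.001, 11.35 and 10.72 proximally (-0.56). Col14a1, another fibril-associated chain of tendon and dermis, read 9.002, 7.26, 6.95 and 7.30 in control distal mandible and 7.58, 6.85, 7.01 and 7.25 in mutant. Its proximal mandible values were 10.16, 9.55, 9.25 and 9.22 in control and 8.93, 8.38, 8.31 and 8.38 in mutant. By number these proximal differences were -1.23, -1.17, -0.94 and -0.84. The groups were apart, at -1.04 ± 0.45, without passing (adjusted p = 0.326). The maxilla groups of Col14a1 overlapped, at 10.74, 10.11, 8.74 and 8.87 against 8.21, 8.59, 8.30 and 9.16 distally (-1.05) and 10.97, 9.16, 9.18 and 9.54 against 9.01, 9.64, 9.68 and 8.25 proximally (-0.57). Tendon markers had a median difference of -0.65 in the proximal mandible (5 genes, 5 below 0, 0 called), with summed log2 levels of 11.82 to 12.42 in control and 11.06 to 11.19 in mutant. Their part in the Col14a1 values was not tested.

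Across all members, 12 of 37 had every mutant array below every control array in the distal mandible (8.02% of all genes did), 9 in the proximal mandible (5.5%), 4 in the distal maxilla (3.47%) and 1 in the proximal maxilla (1.08%). Every mutant array was above every control for 3 members in the proximal mandible (6.33% of all genes), Col9a1, Col18a1 and Col23a1. In the other regions 0 members were, where 4.3%, 2.18% and 2.08% of all genes were in the distal mandible, distal maxilla and proximal maxilla. The proximal maxilla had 0 members called by limma, where 0.0657% of all genes were, and 6 at an unadjusted p under 0.05 (4.9% of all genes), of which Col13a1 was higher. Mutant array 2 stood apart there, with mean marker levels of 11.72 for mesenchyme (others 12.47 to 13.01) and 9.90 for epithelium (10.97 to 11.49). Its cartilage markers were at 9.23 (7.31 to 8.56), and Col17a1 read 6.50 (9.02 to 10.15). Leaving out replicates gave 0 calls in that region too. The part of that array in the overlaps was not tested. Of the other 28 probe sets past the filter, which belonged to 23 members, 22 to 26 had the sign of the main probe set in the 5 genotype comparisons. Treating array number as a block, which the averaged values warranted, raised the count called on average from 1 to 6. These were Col8a1 (adjusted p = 0.0147), Col6a2 (0.017), Col6a1 (0.0253), Col1a1 (0.0269), Col6a3 (0.0438) and Col25a1, all lower. Without number 1 the unblocked count was 10, and without number 2, 3 or 4 it was 0. Shares of all genes called in these alternative fits are not given, so these counts are not read as particular to the members.

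Genes that modify, fold, cut, cross-link, bind or break down collagen, or regulate its transcription, were listed beside the chains. Of the listed symbols 48 were measured past the filter, and 37, 40, 40 and 37 of them were below 0 in the distal mandible, proximal mandible, distal maxilla and proximal maxilla, where 57.3%, 46.3%, 56.7% and 42.5% of all genes were. These counts are not given by array number, and the part of the control arrays numbered 1 in them was not tested. Lox, the lysyl oxidase that starts cross-linking, read 12.34, 11.10, 10.29 and 10.15 in control distal mandible and 9.10, 8.98, 8.94 and 8.97 in mutant. The mutant arrays lay between 8.94 and 9.10, all below the controls. Lox fell by 1.97 ± 0.37 (limma adjusted p = 0.00314) in the distal mandible and differed by -0.63, -0.31 and -0.43 in the other regions, none called. P3h2, a prolyl 3-hydroxylase, rose by 0.61 ± 0.15 (adjusted p = 0.0237) in the distal mandible, from 9.86, 9.67, 9.93 and 9.40 to 10.53, 10.28, 10.20 and 10.30. At the proximal end Ctsk, the collagen-degrading protease cathepsin K, fell by 0.81 ± 0.16 (adjusted p = 0.00935), from 10.69, 10.38, 10.61 and 10.68 to 9.99, 9.78, 9.70 and 9.68. P4ha3, a catalytic subunit of prolyl 4-hydroxylase, fell by 1.12 ± 0.29 there (adjusted p = 0.0475), from 9.67, 8.11, 8.22 and 8.43 to 7.53, 7.49, 7.30 and 7.62. These 4 were all the calls: 2 of 48 in each part of the mandible and 0 of 48 in each part of the maxilla and on average. Control array 1 stood well above the other controls for Lox and P4ha3, but not for P3h2 and Ctsk. Refits with arrays left out are not given for these calls. Of all genes 1.91%, 1.26%, 0.788%, 0.0657% and 1.37% were called in the 4 regions and on average.

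The design also asked which chain genes differ between the jaws and between their ends. In control tissue Col8a1 was lower in the mandible than in the maxilla at both ends, by -1.15 ± 0.26 at the distal end (limma adjusted p = 0.0158) and -1.35 ± 0.26 at the proximal end (0.00152). Its 8 control mandible arrays read 9.98 to 10.58 and its 8 control maxilla arrays 10.95 to 12.15, without overlap. Col14a1 was lower in the distal mandible than in the distal maxilla, by -1.99 ± 0.45 (0.0161), with 8.74 to 10.74 in the maxilla. Control array 1 of the mandible, at 9.002, lay within the maxilla range, and the other 3 did not. These were 2 of 37 members at the distal end, where 1.47% of all genes were called. At the proximal end Col19a1, a minor chain near the filter level, was higher in the mandible at 7.58, 7.28, 7.59 and 7.84 against 6.08, 7.09, 6.74 and 6.97 (0.85 ± 0.21, adjusted p = 0.0118), so that 2 of 37 were called against 5.4% of all genes. The distal calls ended on the 2 groups alone (Col8a1 0.153, Col14a1 0.257) and without number 2 (0.187 and 0.38), 3 (0.0638 and 0.124) or 4 (0.102 and 0.083). Without the array of high 3′ to 5′ Gapdh signal Col14a1 was at -1.76 (0.0801). The Col19a1 call ended without number 1 (0.64, 0.102) or 3 (0.85, 0.12).

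Between the ends of the control mandible 4 of 37 members were called, where 4.84% of all genes were. Col26a1 was higher distally (0.51 ± 0.12, limma adjusted p = 0.00768), at 12.20 to 12.41 against 11.59 to 11.92. Col7a1, which forms the anchoring fibrils of stratified epithelium, was also higher distally, at 10.51, 9.88, 9.90 and 9.87 against 8.97, 9.14, 9.11 and 9.16 (0.95 ± 0.23, adjusted p = 0.0137). Epithelial markers had summed log2 levels of 13.97 to 14.57 distally and 12.93 to 13.54 proximally. Their part in the Col7a1 difference was not tested. Col14a1 was lower distally by -1.92 ± 0.45 (0.0107) and Col25a1, a membrane-spanning chain of motor nerve contacts, by -1.07 ± 0.32 (0.0488). Col25a1 read 11.14, 10.68, 10.51 and 10.03 distally and 11.74, 11.56, 11.78 and 11.56 proximally, without overlap. The summed log2 level of skeletal muscle markers was 11.41 to 13.56 distally and 14.39 to 14.88 proximally (6 genes, 1 called lower), that of glial markers 10.70 to 11.67 and 11.66 to 12.64 (3 genes, 0 called), and that of tendon markers 11.48 to 11.77 and 11.82 to 12.42 (5 genes, 2 called lower). Their part in the Col14a1 and Col25a1 differences was not tested. Leaving out number 3 ended all 4 calls (Col26a1 0.13, Col7a1 0.156, Col14a1 0.162, Col25a1 0.442). Number 1 ended that of Col7a1 (0.75, 0.0749), number 2 those of Col14a1 (0.115) and Col25a1 (0.0581), and number 4 those of Col7a1 (0.0752), Col14a1 (0.0752) and Col25a1 (0.211). Between the ends of the maxilla 0 members were called in either genotype, as were 0% of all genes. At an unadjusted p under 0.05 there were 1 in control (Col26a1, 2.96% of all genes) and 3 in mutant (4.05%).

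In mutant tissue the distal jaws differed in 8 of 37 members, where 13.7% of all genes were called. Lower in the mandible were Col8a1 (-2.43 ± 0.26, limma adjusted p = 3.45e-07), Col14a1 (-1.40), Col9a2, a cartilage chain (-1.28), and Col4a5, a basement membrane chain (-0.56). Higher were Col6a1 (1.13 ± 0.26, adjusted p = 0.00344), Col6a2 (0.89), Col6a3 (0.81) and Col7a1 (0.78). In control the collagen VI differences were 0.57, 0.40 and 0.42, not called. The mutant and control jaw differences use separate arrays, and their difference, the interaction of genotype with jaw, was called for 0 members at the distal end, with 0.102% of all genes called and 1 member, Col8a1, at an unadjusted p under 0.05 (7.3% of all genes). Col8a1 and Col6a1 kept their calls without any 1 number. The other 6 lost theirs without number 3 and without number 4: Col6a2 (0.0811 and 0.0956), Col6a3 (0.134 and 0.131), Col7a1 (0.0724 and 0.181), Col14a1 (0.118 and 0.199), Col9a2 (0.116 and 0.163) and Col4a5 (0.0955 and 0.113). Without number 2, Col6a2 (0.0727), Col6a3 (0.182), Col14a1 (0.196) and Col4a5 (0.0975) lost theirs too. At the proximal end Col8a1 alone was called (-1.68 ± 0.26, adjusted p = 0.000211), 1 of 37 against 3.06% of all genes. Between the ends of the mutant mandible 3 of 37 were called, against 5.03% of all genes, and all were lower distally. The count was 9 with a random block of genotype and number, 12 on these groups alone and 0 to 7 with replicates left out. The 3 were Col4a5 (-0.77 ± 0.16, adjusted p = 0.00298), Col23a1, a membrane-spanning chain (-1.17 ± 0.27, 0.00882), and Col9a1 (-1.03 ± 0.28, 0.0248). Each lost its call without number 3 (0.0519, 0.134 and 0.2). Col23a1 also lost it without number 2 (0.0791), and Col9a1 without number 1 (0.0929) or 4 (0.076).

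**Figure D5:**
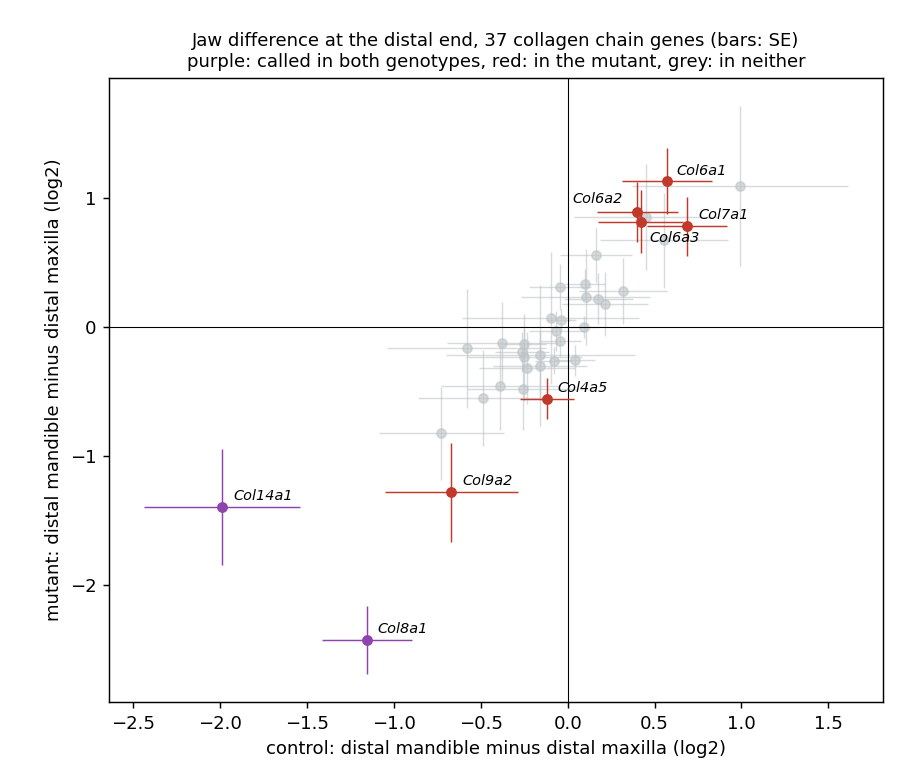
Difference between distal mandible and distal maxilla (log2) of the 37 tested genes in control (horizontal axis) and mutant (vertical axis), with SE bars; purple marks genes called in both genotypes, red those called in the mutant and grey those called in neither. Col8a1 lies at -1.15 and -2.43 and Col14a1 at -1.99 and -1.40, and the collagen VI genes lie at 0.40 to 0.57 and 0.81 to 1.13.

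The remaining interactions called 0 members by limma. At the proximal end the interaction with jaw was called for 0.0073% of all genes and had 3 members at an unadjusted p under 0.05 (2.17% of all genes), Col9a1 (0.997 ± 0.39), Col26a1 and Col18a1. The interaction with end had 2 members below that level in the mandible (4.24%), Col18a1 and Col4a5, where 0.0219% of all genes were called. It had 5 in the maxilla (4.78%), led by Col26a1, where 0.0584% were called. Col26a1 was called for genotype by end in the maxilla with a random block of genotype and number, with a sex covariate, without number 2 and without the control arrays numbered 2. The 4 regions of a genotype and number may share material. Xist was high in all 4 regions of control number 2 and of mutant number 1. The regions of control number 3 were not alike, with Xist at 6.70 and 6.84 in the mandible and 9.69 and 10.72 in the maxilla. Whether regions share material was not tested.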

How the data were processed

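The 32 arrays were Affymetrix expression arrays. The deposited values are on the log2 scale, and RMA is named in the submitters' processing notes without a version. RNA was extracted with RNeasy, per the labels' protocols. Of 45101 probe sets, 34945 carried 1 symbol. Probe sets above the array's percentile 40 on at least 4 arrays were kept (29356), and the one of highest mean stood for a gene (13705 genes). Arrays were grouped by the labels' genotype, jaw and end. Differences were fitted with limma 3.58.1 in R 4.3.3, in 1 model of 8 groups with 24 residual degrees of freedom, or, for the average, on means of the 4 regions of a number (4 against 4, 6 residual degrees of freedom). P-values were adjusted by Benjamini-Hochberg over all genes tested, and 0.05 was the threshold. The fits were tested on simulated data. The number of arrays limits the precision.

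Values of every array are given for the called members of largest difference, up to a fixed number per direction and comparison, and for a fixed list of 12 collagen genes, of which Col10a1, below the filter on every array, is given by its range. Members, lists and this rule were chosen with earlier results of these data known. Averaged values of the same number deviated together (r of 0.44, 0.20, 0.40 and 0.23 for numbers 1 to 4). The main average fit did not pair by number. The fit of the averages with number as a block is given beside it as an alternative. Alternatives were filters, probe set means, centring, blocks, covariates, thresholds and left-out arrays.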

Additional observations from a re-analysis of the deposited data

Results flagged for a closer look

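In groups of 4 arrays, 14 of 160 groups of named members had 1 array far from the other 3 by Dixon's criterion, which chance gives in about 1 of 20 groups. Of these, 10 were arrays numbered 1. In control, Col14a1 read 9.002 in the distal mandible (others 6.95 to 7.30), Col7a1 10.51 (9.87 to 9.90) and Col12a1 12.09 (11.22 to 11.26) there. Col12a1 read 12.52 in the proximal mandible (11.30 to 11.42). Col1a1 read 13.04 in the proximal mandible (11.80 to 11.98) and 12.60 in the distal maxilla (11.63 to 11.75). In mutant, Col6a2 read 12.70 in the distal mandible (12.29 to 12.35) and 12.03 in the distal maxilla (11.30 to 11.42), Col14a1 8.93 in the proximal mandible (8.31 to 8.38), and Col12a1 was low at 10.35 in the distal mandible (10.69 to 10.74).

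The other 4 were on numbers 2 and 4. Control array 2 of the distal maxilla read 11.73 for Col26a1 (12.30 to 12.37) and 12.01 for Col25a1 (10.38 to 10.58). Mutant array 4 read 10.88 for Col23a1 in the distal maxilla (9.85 to 10.02) and 13.77 for Col1a2 in the proximal mandible (14.06 to 14.09).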

How the results depend on the processing

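Of 1815 recomputed differences of named genes (80 gene results), 1585 kept direction and side of the threshold, 147 lost the call, 46 gained one and 37 turned sign. The cause of these moves was not tested. Shares of all genes called are not given for the alternative fits, so the counts below are not read as particular to the members. With the replicate block the members called numbered 8 in the distal mandible (1 without it), 9 in the proximal mandible (2), 9 in the distal maxilla (3), 1 in the proximal maxilla (0), 6 on average (1), 5 for the proximal control jaws (2) and 5 for the ends of the mutant mandible (3). In single regions the numbers were not shown to pair the arrays. With number 1 as a covariate the counts were 9, 9 and 8 in the first 3 regions, 12 on average, 5 for the proximal control jaws and 6 for the mutant mandible ends. The groups compared alone gave 4 in the proximal mandible, 0 in the distal maxilla, 0 for the distal control jaws, 1 for the proximal control jaws and 12 for the mutant mandible ends. The mean of a gene's probe sets gave 1 in the proximal mandible, 1 in the distal maxilla, 0 on average and 6 for the mutant mandible ends. An adjusted p under 0.1 gave 6 in the distal maxilla, 2 on average, 2 for the proximal mutant jaws, 7 for the mutant mandible ends and 1 for genotype by end in the maxilla. A random block of genotype and number gave 2, 9 and 1 for those last 3, and a sex covariate gave 2 for the proximal mutant jaws and 1 for genotype by end in the maxilla. The filter at percentile 60 gave 1 for the proximal control jaws, and leaving out the array of high Gapdh signal, chosen after seeing the data, gave 1 for the distal control jaws.

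Leaving out replicates gave 0 to 3 calls in the distal mandible, 0 to 2 in the proximal mandible, 0 to 4 in the distal maxilla and 0 to 10 on average. It gave 0 to 2 for distal and 1 to 2 for proximal control jaws, 0 to 4 for control mandible ends, 2 to 10 for distal and 1 to 3 for proximal mutant jaws, 0 to 7 for mutant mandible ends and 0 to 1 for genotype by end in the maxilla. The signs of these differences turned. In the proximal mandible Col2a1 ranged from -0.12 to 0.22, Col4a1 from -0.099 to 0.099 and Col12a1 from -0.39 to 0.041. In the distal maxilla Col2a1 ranged from -0.75 to 0.14 and Col9a1 from -0.53 to 0.086. In the proximal maxilla Col1a1 ranged from -0.19 to 0.023, Col3a1 from -0.074 to 0.0021, Col6a1 from -0.35 to 0.038 and Col4a1 from -0.050 to 0.11. On average Col2a1 ranged from -0.37 to 0.0048, Col9a1 from -0.20 to 0.096 and Col4a1 from -0.14 to 0.039. Col4a1 in the proximal mandible was 0.0026, and -0.0049 with centred arrays or -0.00076 with the mean of its probe sets.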
